A study of Homo sapiens with 3 samples.

Results

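The genes described here are the protein-coding genes of human chromosome 19 whose symbol is ZNF followed by digits, the standard symbol for zinc finger genes named by number. Of 238 such genes found in the expression files, 192 had a mean level of at least 1 FPKM over the 3 libraries. FPKM counts fragments per kilobase of transcript, relative to the size of the library. GENCODE release 29 lists 240 genes under this rule, and ZNF229 and ZNF8 were not matched to a row. A further 29 genes were above 0 with a mean under 1 FPKM, and 17 were listed at 0 in every library. The rule used chromosome, gene class and symbol and no measured value, and the whole series holds 48162 genes, 19210 of them protein-coding.

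The study measured RNA in MDA-MB-231, an established line of triple-negative breast cancer cells from a human, in 3 groups of 1 library each. All 3 cultures were exposed to lentivirus, including the control, whose vector the sources used here do not name. One culture was depleted of FoxO3, a forkhead transcription factor restrained by AKT phosphorylation. The other was depleted of both Geminin, the inhibitor of the licensing factor CDT1, and FoxO3 itself. The sources used here do not give the sequences that brought about the depletion, and the titles of both depleted libraries carry a number that the labels do not explain. A depletion of Geminin alone was not analysed here. With 1 library per group, every difference below is a difference between 2 libraries with no replicate check, no test between conditions was made and no p-value is given.

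Most of these genes encode proteins with a row of C2H2 zinc fingers, each of which folds around a zinc ion and reads a few bases of DNA. Many also carry a KRAB domain, which binds TRIM28 (KAP1) and through it SETDB1 and HP1 proteins, and so places repressive chromatin on transposons and on other zinc finger genes. The family spread by local duplication, which left long runs of related neighbours on chromosome 19 and coding sequences built of near-identical repeats.

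The repeat is visible in the coding sequence. The conserved linker between neighbouring fingers was searched by its codons, with any base allowed at the last position of each codon. On the sense strand this pattern occurred at least 1 time in a transcript of 160 of the 192 genes (83.3%), of 70.3% of 229 ZNF genes on other chromosomes, and of 1.33% of 19453 protein-coding genes outside both groups. The highest number in 1 transcript was 25. Stretches of 98 bases are printed from the coding part of GENCODE 29 transcripts, 5′ to 3′, because their genes recur in the results: ZNF302 had the lowest ratio to control, ZNF93 is a known silencer of LINE-1 elements, ZNF146 had the most reads in the control, and ZNF699 and ZNF317 were among the highest ratios. Capitals mark the linker pattern, and the bases between successive linkers, with 1 linker, form a repeat of 84 bases. In ZNF302 the linker position at the end of the stretch does not match the pattern, so it is in lower case.
ZNF302: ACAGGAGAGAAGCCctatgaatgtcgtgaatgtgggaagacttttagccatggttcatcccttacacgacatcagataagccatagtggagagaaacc
ZNF93: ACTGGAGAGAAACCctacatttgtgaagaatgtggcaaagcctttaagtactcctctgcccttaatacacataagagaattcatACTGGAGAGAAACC
ZNF146: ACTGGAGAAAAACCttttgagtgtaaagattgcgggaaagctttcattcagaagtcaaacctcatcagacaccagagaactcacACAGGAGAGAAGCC
ZNF699: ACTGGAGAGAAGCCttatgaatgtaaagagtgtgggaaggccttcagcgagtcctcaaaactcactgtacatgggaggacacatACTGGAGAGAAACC
ZNF317: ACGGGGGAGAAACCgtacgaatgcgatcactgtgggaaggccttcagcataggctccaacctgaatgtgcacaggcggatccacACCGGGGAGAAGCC
Base by base, these stretches were identical at 61.2% to 72.4% of positions. The genes share sequence to different degrees: the median gene had 2.11% of its 50-base words in transcripts of other genes, and 30 of the 192 had over 10%. In 43 genes over 10% of exon bases overlapped exons of another gene. How the authors' counting divided such reads was not stated, so values of these genes are uncertain.

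Transcripts of the depleted genes matched the labels. FOXO3 stood at 12.2 FPKM in the control, 2.79 with FoxO3 depleted and 2.94 in the co-depletion. GMNN, which encodes Geminin, stood at 112.3, 112.2 and 37.0 FPKM. Of the 5 genes chosen as high in this mesenchymal line, VIM, CD44, MSN and AXL lay between 480.2 and 935.2 FPKM, and SPARC lay near 1 FPKM in every library. Oestrogen and progesterone receptor transcripts (ESR1, PGR) were at most 0.119 FPKM and the epithelial cadherin CDH1 at most 1.02, while ERBB2 lay between 38.0 and 46.8. The epithelial gene EPCAM, also chosen as low in this line, stood at 13.7, 9.80 and 8.95 FPKM, so it was present in all libraries and lowest in the co-depletion. The endothelial genes CDH5 and VWF summed to under 0.263 FPKM in every library, as did the HEK293 marker list. For PECAM1, also chosen for endothelium, no value is given here. The leukocyte gene PTPRC was at most 0.191 FPKM, and CD3E and SALL4 were listed at 0. The 3 fibroblast markers summed to 19.8, 40.4 and 38.8 FPKM, through COL1A1 and PDGFRB, with COL3A1 at most 0.155. The part of the EPCAM and fibroblast marker differences in the results below was not tested. The totals behind the FPKM values, recovered from the values themselves, were 14507410, 10760613 and 12267332 reads, so the depleted libraries had 74.2% and 84.6% of the control's depth.

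As a family the genes were expressed at low levels. The median over the 192 genes was 6.23 FPKM in the control, 3.86 with FoxO3 depleted and 4.11 in the co-depletion. The quartiles were 3.67 to 9.84 FPKM in the control, 2.32 to 7.38 with FoxO3 depleted and 2.45 to 7.67 in the co-depletion. The median and quartiles were thus lowest in the FoxO3 depletion and highest in the control, with quartile ranges that overlapped. Gene by gene, the FoxO3 depletion was the lowest library for 111 of the 192, the co-depletion for 63 and the control for 18. The mean over libraries was at least 5 FPKM in 91 genes, at least 10 in 34 and at least 20 in 13, against a median of 21.6 for all protein-coding genes with a mean of at least 1. Reaching a mean of 1 FPKM was nonetheless common, in 80.7% of the 238 genes against 59.5% of protein-coding genes. Together the 238 genes took 0.278% of the recovered reads in the control, 0.211% with FoxO3 depleted and 0.218% in the co-depletion. Among the 192, the median gene rested on 143.5 reads in the control, 68.5 with FoxO3 depleted and 86 in the co-depletion. The recovered counts ran from 17 to 1459 in the control and from 3 to 805 in the FoxO3 depletion.

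**Figure D1:**
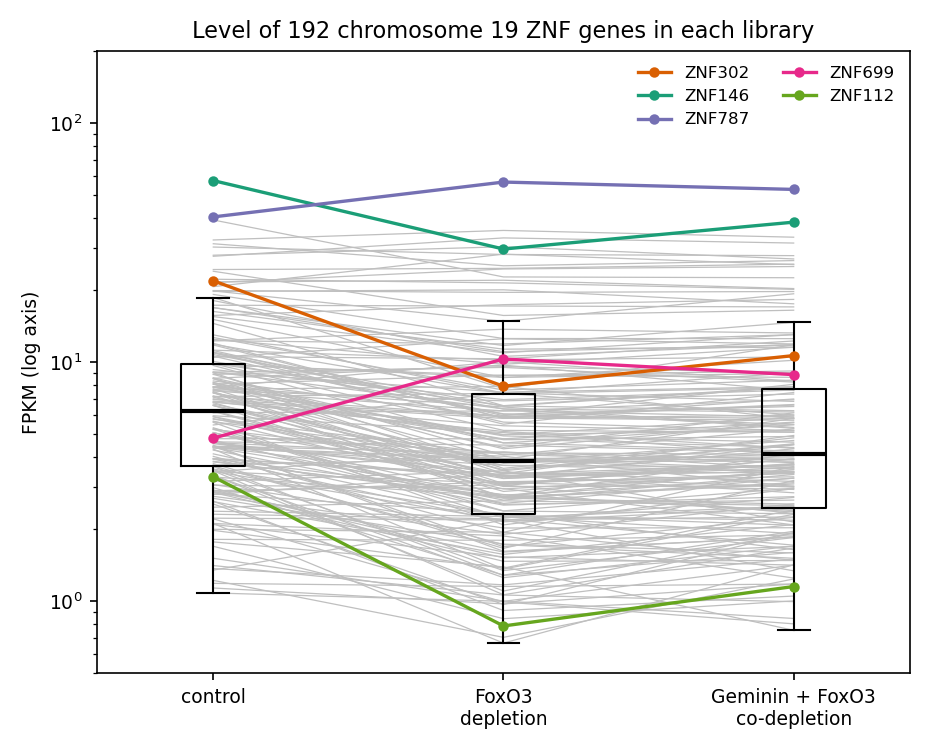
FPKM (log axis) of each of the 192 genes in the 3 libraries, 1 grey line per gene, with 5 genes in colour; boxes show the quartiles and the median, and whiskers reach the last gene within 1.5 times the box height. The medians stand at 6.23, 3.86 and 4.11 FPKM, and ZNF699 crosses the general slope from 4.80 to 10.3 FPKM.

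The genes with the highest mean levels were ZNF787, ZNF146, ZNF274, ZNF562, ZNF444, ZNF561, ZNF175 and ZNF121. ZNF787 stood at 40.4 FPKM in the control, 56.5 with FoxO3 depleted and 52.6 in the co-depletion. ZNF146 (OZF), which consists of zinc fingers and has no KRAB domain, stood at 57.3, 29.7 and 38.4 FPKM. ZNF274, which brings SETDB1 to the ends of other zinc finger genes, stood at 32.4, 35.5 and 33.2 FPKM. The control was thus the highest library for ZNF146 and the lowest for ZNF787, and ZNF274 kept within 1.10 times its control level. ZNF175 (OTK18), known from HIV-infected macrophages, stood at 39.2, 22.7 and 22.5 FPKM. ZNF444, which binds DNA beside a SCAN domain, stood at 30.2, 28.1 and 27.8 FPKM. Of these 8 genes, ZNF146 and ZNF175 were at least 1.5-fold lower in the FoxO3 depletion than in the control, and the other 6 were within 1.5-fold.

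The first comparison asks how this family stood when FoxO3 was depleted. Ratios are given as log2 of (FPKM + 1) in 1 library over (FPKM + 1) in the other, a scale that understates differences of low genes, and a gene is called by size alone, at 1.5-fold on that scale. In the FoxO3 depletion, 77 of the 192 genes were at least 1.5-fold lower than in the control (40.1%), against 16.4% of the 11435 protein-coding genes analysed. Only ZNF699 was at least 1.5-fold higher (0.521%), against 3.87% of all. The other 114 lay within 1.5-fold. The median log2 ratio of the family was -0.44, with quartiles of -0.78 and -0.11, and that of all protein-coding genes was -0.06. A ratio below 0, of whatever size, was found in 162 genes (84.4%), against 56.1% of all. At 2-fold, 18 genes were lower, against 5.3% of all protein-coding genes, and none was higher, against 0.638%. In bulk RNA, less transcript per cell and fewer cells with the transcript cannot be told apart.

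Counting error was estimated for each ratio. Each FPKM ratio was given an exact 95% interval from the reads of its 2 libraries (Clopper-Pearson), which covers counting error only. All 77 genes called lower had an interval wholly under 1. The calls and the intervals came from the same reads, so this is not separate support for the calls. Some of these intervals reached ratios short of 1.5-fold, such as that of ZNF132 (0.303 to 0.865). In all, the interval lay under 1 for 107 of the 192 genes and above 1 for 7. Over all protein-coding genes these shares were 36% and 26.5%, in a set with a higher median level.

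The 10 lowest ratios belonged to ZNF302, ZNF112, ZNF100, ZNF615, ZNF83, ZNF829, ZNF880, ZNF569, ZNF606 and ZNF546. ZNF302 (ENSG00000089335) stood at 21.8 FPKM in the control, 7.91 with FoxO3 depleted and 10.6 in the co-depletion. Its control value was more than the depleted values together, with 532 reads in the control and 143 and 219 in the depletions. The log2 ratio in the FoxO3 depletion was -1.36, and the FPKM ratio was 0.362 (95% counting interval 0.299 to 0.437). ZNF83 stood at 18.6, 7.74 and 11.8 FPKM. Its FPKM ratio in the FoxO3 depletion was 0.416 (0.338 to 0.510), and its co-depleted value lay between the other libraries. ZNF100 stood at 7.44, 2.70 and 3.09 FPKM, a ratio of 0.363 (0.265 to 0.490) in the FoxO3 depletion. ZNF569 stood at 8.53, 3.41 and 4.93 FPKM. ZNF880 stood at 9.01, 3.59 and 4.82 FPKM. For all of these the FoxO3 depletion was the lowest library and the co-depletion the next.

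The remaining genes of the 10 were low throughout. ZNF112 (3.31, 0.788 and 1.15 FPKM) rested on 17, 3 and 5 recovered reads, so its ratio of 0.238 had an interval of 0.0447 to 0.823. The length behind these reads was 354 bases, against an annotated mean of 1535.5. Its true reads may thus be a multiple of these and its interval too wide. ZNF615 stood at 4.32, 1.36 and 2.31 FPKM. ZNF829 stood at 3.51, 1.06 and 1.67 FPKM. In these 3 the FoxO3 depletion was again the lowest library. ZNF606, with the highest GC content of the 10 at 56.2%, stood at 5.59, 2.08 and 2.95 FPKM. ZNF546 stood at 4.48, 1.62 and 1.85 FPKM. The control was the highest library for all 10, with FPKM ratios in the FoxO3 depletion between 0.238 and 0.416.

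The opposite end of the range held few genes beyond their counting error. ZNF699 (ENSG00000196110) stood at 4.80 FPKM in the control, 10.3 with FoxO3 depleted and 8.85 in the co-depletion. Both depleted libraries lay above the control, with 259 and 254 reads against 163. The log2 ratio was 0.96 in the FoxO3 depletion, and the FPKM ratio was 2.14 (1.75 to 2.62). ZNF787 followed with an FPKM ratio of 1.40 (1.27 to 1.55). ZNF317 stood at 20.6, 28.2 and 25.5 FPKM, a ratio of 1.37 (1.24 to 1.51). Both genes stood above the control in each depleted library. ZNF473 (ZFP100), a component of the U7 snRNP that processes histone transcripts, stood at 7.86, 10.04 and 8.32 FPKM, a ratio of 1.28 (1.07 to 1.52). The ratios of ZNF552, ZNF562 and ZNF211 also had intervals above 1, at 1.36, 1.193 and 1.197. ZNF57, ZNF222 and ZNF296 completed the 10 highest, with intervals that included 1. ZNF57 rested on 25, 30 and 21 reads. Of these 10 genes, ZNF699 alone passed the 1.5-fold rule.

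**Figure D2:**
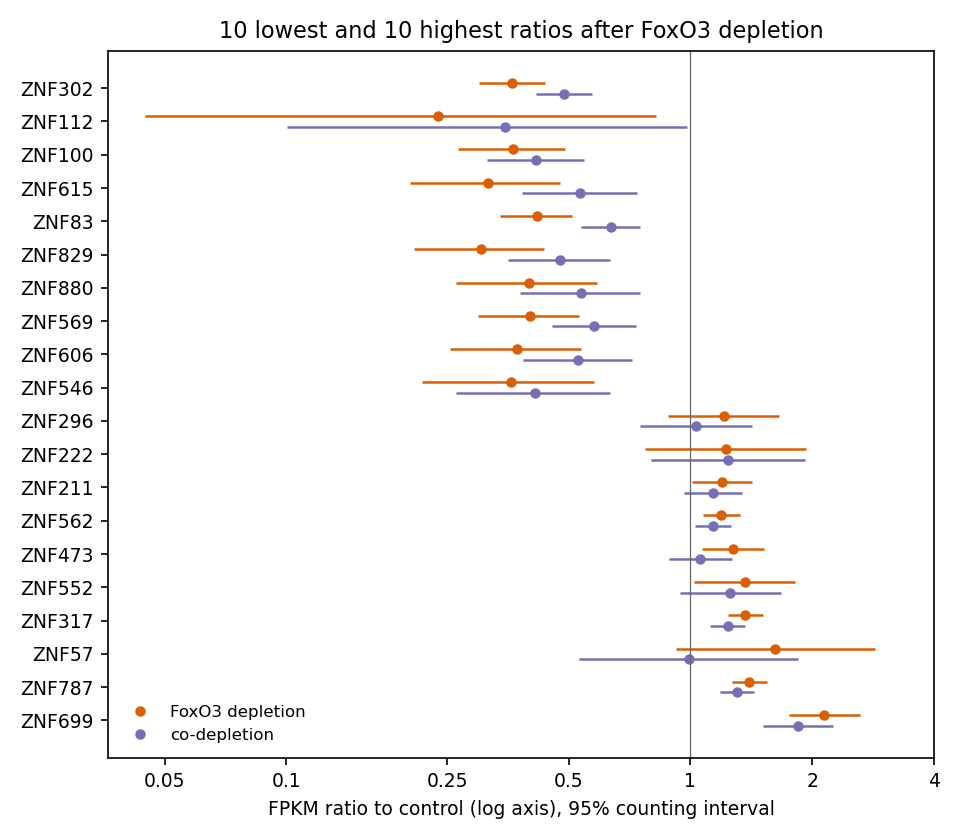
FPKM ratio to control (log axis) of the 10 lowest and the 10 highest genes by the log2 ratio in the FoxO3 depletion, in the FoxO3 depletion (orange) and the co-depletion (purple), with exact 95% counting intervals as lines. All 10 low genes lie left of 1 in both libraries, and ZNF699 stands at 2.14 and 1.84; the genes were chosen by the ratio shown.

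Among genes whose products are known to silence transposons, ZNF91, a silencer of SVA elements, stood at 12.98 FPKM in the control, 7.42 with FoxO3 depleted and 9.01 in the co-depletion. ZNF93, which silences LINE-1 elements, stood at 8.88, 4.08 and 5.25 FPKM. ZNF765, known to bind LINE-1 elements, stood at 10.6, 5.604 and 5.16 FPKM. These 3 were at least 1.5-fold lower in the FoxO3 depletion, with FPKM ratios of 0.571 (0.458 to 0.708), 0.460 (0.320 to 0.649) and 0.530 (0.403 to 0.691). After the adjustments for mean GC and for the GC of the longest transcript, both described below, the log2 ratio of ZNF91 was -0.30 and -0.04. Those of ZNF93 were -0.84 and -0.59, and those of ZNF765 were -0.93 and -0.85. ZNF611, known to bind SVA elements, stood at 9.86, 6.55 and 6.26 FPKM, a log2 ratio of -0.52 that is under the size rule. ZNF649, which also binds LINE-1 elements, stood at 4.60, 4.03 and 3.01 FPKM, and its interval in the FoxO3 depletion included 1 (0.611 to 1.25). The imprinted gene ZNF331 stood at 19.2, 12.5 and 12.5 FPKM. Its log2 ratio was -0.58 in both depletions, just short of 1.5-fold.

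Members with roles outside transposon control were named after their values were seen. ZNF350 (ZBRK1), a partner of BRCA1 in repression, stood at 8.59 FPKM in the control, 4.59 with FoxO3 depleted and 5.46 in the co-depletion. ZNF675 (TIZ), an inhibitor of TRAF6 signalling, stood at 8.08, 3.51 and 4.53 FPKM. ZNF420 (Apak), an inhibitor of p53, stood at 5.80, 3.33 and 4.34 FPKM. All 3 were at least 1.5-fold lower in the FoxO3 depletion, with FPKM ratios of 0.534, 0.435 and 0.573 and intervals under 1. After the adjustment for the GC of the longest transcript, described below, their log2 ratios were -0.59, -0.34 and -0.12. ZNF350 alone of the 3 then remained at least 1.5-fold lower. ZNF45, with 14 linker matches, stood at 19.9, 19.5 and 19.7 FPKM, a ratio of 0.983 (0.850 to 1.14).

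The proteins that KRAB zinc fingers work through were followed as a list of 19 genes, of which 18 were matched and analysed. TRIM28 itself stood at 599.0 FPKM in the control, 647.9 with FoxO3 depleted and 592.2 in the co-depletion. SETDB1, the histone H3 lysine methyltransferase it recruits, stood at 15.4, 13.5 and 13.8 FPKM. Both thus lay within 1.5-fold in every library. In the FoxO3 depletion 6 of the 18 were at least 1.5-fold lower and none was higher, with a list median of -0.20. Of all protein-coding genes 16.4% were lower by that size and 3.87% higher, with a median of -0.06. The 6 were SMARCAD1, MORC3, FAM208A (TASOR of the HUSH complex), ATF7IP, CBX5 and CBX3. CBX5 (HP1-alpha) stood at 51.9, 29.6 and 25.9 FPKM. CBX3 (HP1-gamma) stood at 207.9, 119.9 and 129.7 FPKM. These 6 transcripts have 36.9% to 41.8% GC, and after the adjustment for mean GC content described next, MORC3 alone remained at least 1.5-fold lower. After adjustment for the GC of the longest transcript, also described below, 0 of the 18 were lower by that size.

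Ratios of the family followed the GC content of the transcripts. GC content is the mean over a gene's GENCODE 29 transcripts, and its median was 46.3% for the 192 genes and 49.7% for all protein-coding genes. When the 192 genes were divided into 3 equal groups of 64, those with 35.8% to 44.9% GC had a median log2 ratio of -0.77 in the FoxO3 depletion, and 44 were at least 1.5-fold lower. The middle group, with 44.96% to 48.29% GC, had a median of -0.49 and 26 lower genes. The group with 48.35% to 71.3% GC had a median of -0.14, with 7 lower genes and ZNF699 as the higher one. Of all protein-coding genes 16.4% were lower by that size, and of those outside the family with up to 40.6% GC 55.2% were. Ranked against GC content, the ratios had a Spearman correlation of 0.52 over the 192 genes and 0.40 over all 11435 protein-coding genes, given as a description of genes that share libraries and base composition.

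The extremes of GC content show the same order. ZNF681, with 35.8% GC, stood at 3.35 FPKM in the control, 1.25 with FoxO3 depleted and 1.70 in the co-depletion. ZNF260, with 37.4% GC, stood at 6.76, 3.04 and 3.93 FPKM. ZNF626 and ZNF254, the other 2 of the 4 lowest, had log2 ratios of -1.05 and -1.01 in the FoxO3 depletion. All 4 genes of lowest GC were thus at least 1.5-fold lower. ZNF628, with 71.3% GC, stood at 6.13, 6.25 and 5.90 FPKM. ZNF865, with 69.9% GC, stood at 9.04, 7.47 and 7.88 FPKM. ZNF837 and ZNF414, the other 2 of the 4 highest, had log2 ratios of -0.11 and -0.40. None of the 4 genes of highest GC was at least 1.5-fold lower.

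**Figure D3:**
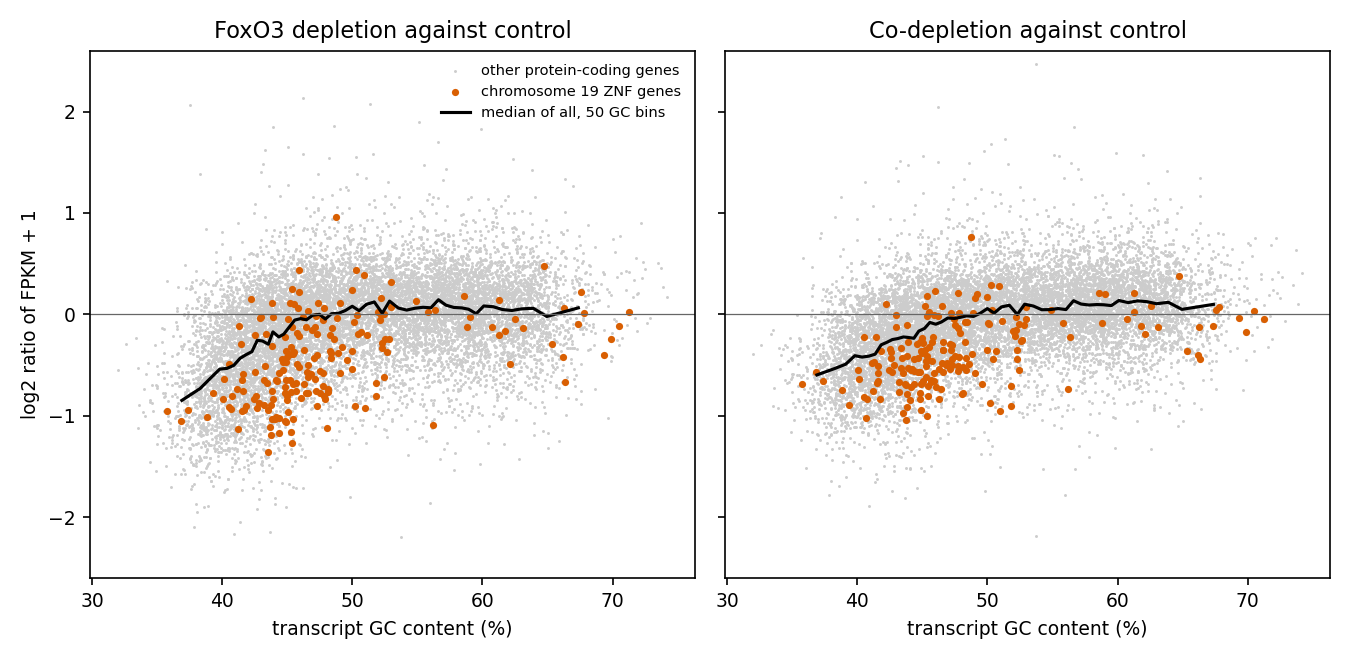
Log2 ratio of FPKM + 1 against transcript GC content in percent, for the FoxO3 depletion (left) and the co-depletion (right) against the control; each orange point is 1 of the 192 genes, grey points are the other protein-coding genes and the black line is the median of all in 50 GC bins. Most orange points at 40% to 50% GC lie under the line: in the FoxO3 depletion 159 of the 192 lay under the median of their bin.

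Genes of like GC content outside the family had higher medians. In the band of protein-coding genes with 42.9% to 44.9% GC, the family's 35 genes had a median log2 ratio of -0.68 in the FoxO3 depletion and 62.9% were at least 1.5-fold lower, while the other 1109 genes had a median of -0.22 and 22.1% lower. From 44.9% to 47.2% GC, the median was -0.45 for 46 members and -0.05 for the rest. From 47.2% to 49.7% GC, it was -0.39 for 30 members and 0.01 for the rest. In the lowest band, up to 40.6% GC, the 9 members had a median of -0.92 and the other genes also had a low one, -0.65. At least 1.5-fold lower there were 88.9% of the members and 55.2% of the other genes. The members' median was the lower of the pair in each of these bands.

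When the median ratio of protein-coding genes in each of 50 GC bins was subtracted, the family's median in the FoxO3 depletion went from -0.44 to -0.31. After this adjustment 49 of the 192 genes were at least 1.5-fold lower (25.5%), against 9.01% of all protein-coding genes, and 159 had a value below 0 (82.8%), against 49.8%. ZNF699 remained the sole gene at least 1.5-fold higher, against 5.5% of all. The remainder depended on which transcript supplied the GC content. With the GC of each gene's longest transcript, whose median over the family was 42.4%, the median was -0.22 and 27 genes were at least 1.5-fold lower (14.1%), against 8.24% of all. Among the 10 lowest genes, the log2 ratio of ZNF302 was -1.06 after adjustment for mean GC and -0.66 after adjustment for the longest transcript. For ZNF606 these values were -1.16 and -0.94, and for ZNF699 they were 0.95 and 1.23. The annotated length bore little relation to the ratio, with a Spearman correlation of 0.01 over the 192 genes.

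In the FoxO3 depletion, ZNF genes on other chromosomes had values between those of the family and those of all genes. Of 229 in the files, 188 had a mean of at least 1 FPKM, with a median GC of 49.5%. In the FoxO3 depletion their median log2 ratio was -0.24, and 50 were at least 1.5-fold lower (26.6%). After adjustment for mean GC, 33 were (17.6%). With the GC of the longest transcript, 18 were (9.57%), against 14.1% in the family and 8.24% of all. The median was then -0.17, against -0.22 in the family. The 638 other protein-coding genes of that chromosome had a median GC of 60.7% and a median log2 ratio of 0.11, and 25 were at least 1.5-fold lower (3.92%). Of 19 genes on the chromosome with other symbols of the C2H2 type, 9 were analysed, with a median of -0.17 and none at least 1.5-fold lower. No test of the difference between these lists was made, since they differ in GC content and level.

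**Figure D4:**
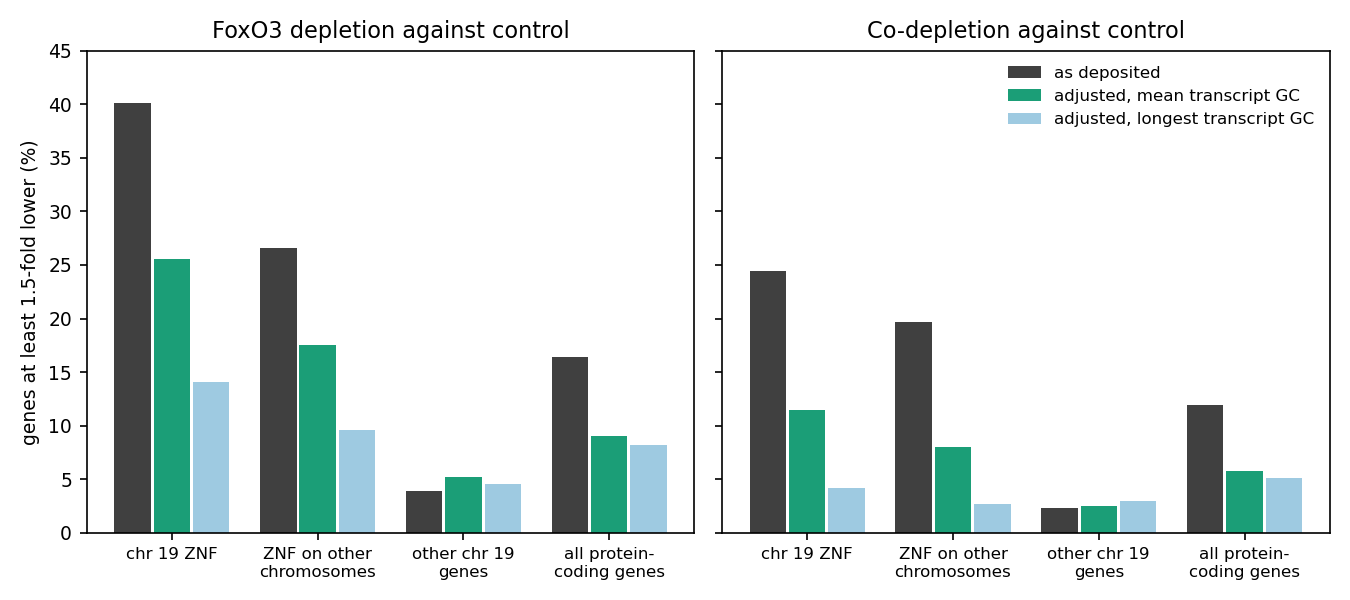
Percentage of genes at least 1.5-fold lower than in the control, for the FoxO3 depletion (left) and the co-depletion (right), in 4 lists; bars show values as deposited, adjusted for the mean GC of a gene's transcripts, and adjusted for the GC of its longest transcript. For the chromosome 19 ZNF genes in the FoxO3 depletion the bars stand at 40.1%, 25.5% and 14.1%, and for all protein-coding genes at 16.4%, 9.01% and 8.24%.

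Ratios also differed by expression level and by the number of finger repeats, which varied along with GC content. Among the 80 members with a mean of 2 to 5 FPKM, the median log2 ratio in the FoxO3 depletion was -0.53, while other protein-coding genes of that level had -0.26. For 57 members at 5 to 10 FPKM it was -0.57, against -0.22. For the 21 members at 1 to 2 FPKM it was -0.29, against -0.17, and for the 21 at 10 to 20 FPKM -0.40, against -0.15. For the 13 members at 20 FPKM or more it was 0.02, against 0.04, so the most expressed members had a median near that of other genes. The 32 members without a linker match had a median GC of 58.8% and a median ratio of -0.15, and 5 were at least 1.5-fold lower. The 37 with 1 to 4 matches had 47.8% GC, a median ratio of -0.19 and 9 lower genes. Members with more matches had lower GC and lower ratios. The 67 with 5 to 8 matches had 45.3% GC, a median of -0.57 and 29 lower genes. The 39 with 9 to 12 matches had 45.1% GC, a median of -0.77 and 23 lower genes. The 17 with 13 or more had 44.0% GC, a median of -0.68 and 11 lower genes. Of all protein-coding genes 16.4% were lower by that size. After adjustment for mean GC the medians of these 5 groups were -0.19, -0.18, -0.44, -0.43 and -0.32. The part of repeat number apart from GC content was not tested.

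Members lie in runs of neighbours, and the runs differed. Members were placed in order along the chromosome, and a new run was started where the next member lay more than 1 Mb away, which gave 16 runs. The run from ZNF175 to ZNF331 held 34 analysed genes with a median GC of 45.8% and a median of 9.5 linker matches. All 34 had a log2 ratio below 0 in the FoxO3 depletion, the median was -0.76, and 23 were at least 1.5-fold lower. It contains ZNF83, ZNF615, ZNF880, ZNF611, ZNF765, ZNF350 and ZNF331. The run from ZNF101 to ZNF254, which contains ZNF91, ZNF93, ZNF100 and ZNF85, held 26 analysed genes with 42.4% GC, a median of -0.79 and 19 lower genes. The run from ZNF565 to ZNF573 held 19, with a median of -0.65 and 11 lower. Over all protein-coding genes, whose median GC was higher than that of these runs, 16.4% were lower by that size.

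At the other end, the run from ZNF628 to ZNF446 near the end of the order held 49 analysed genes with a median GC of 51.8% and a median of 1 linker match. Its median log2 ratio in the FoxO3 depletion was -0.12, and 6 genes were at least 1.5-fold lower. The run from ZNF557 to ZNF846, which contains ZNF699, ZNF317, ZNF561 and ZNF562, held 13, with a median of -0.19 and 3 lower. After adjustment for mean GC the medians were -0.58 in the run from ZNF175 to ZNF331, -0.39 in that from ZNF101 to ZNF254, -0.15 in that from ZNF628 to ZNF446 and 0.10 in that from ZNF557 to ZNF846. With the GC of the longest transcript they were -0.49, -0.16, -0.12 and 0.03. The run from ZNF175 to ZNF331 was thus the lowest of these 4 under both adjustments. The 65 other protein-coding genes analysed that lie between members within the 16 runs had a median GC of 60.2% and a median ratio of 0.15. Of these, 3 were at least 1.5-fold lower. Few of the 65 lay in the low runs, so they say little about neighbours there. The run from ZNF175 to ZNF331 held 3, of which 1 was lower. That from ZNF565 to ZNF573 held 1, and that from ZNF101 to ZNF254 held 0.

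**Figure D5:**
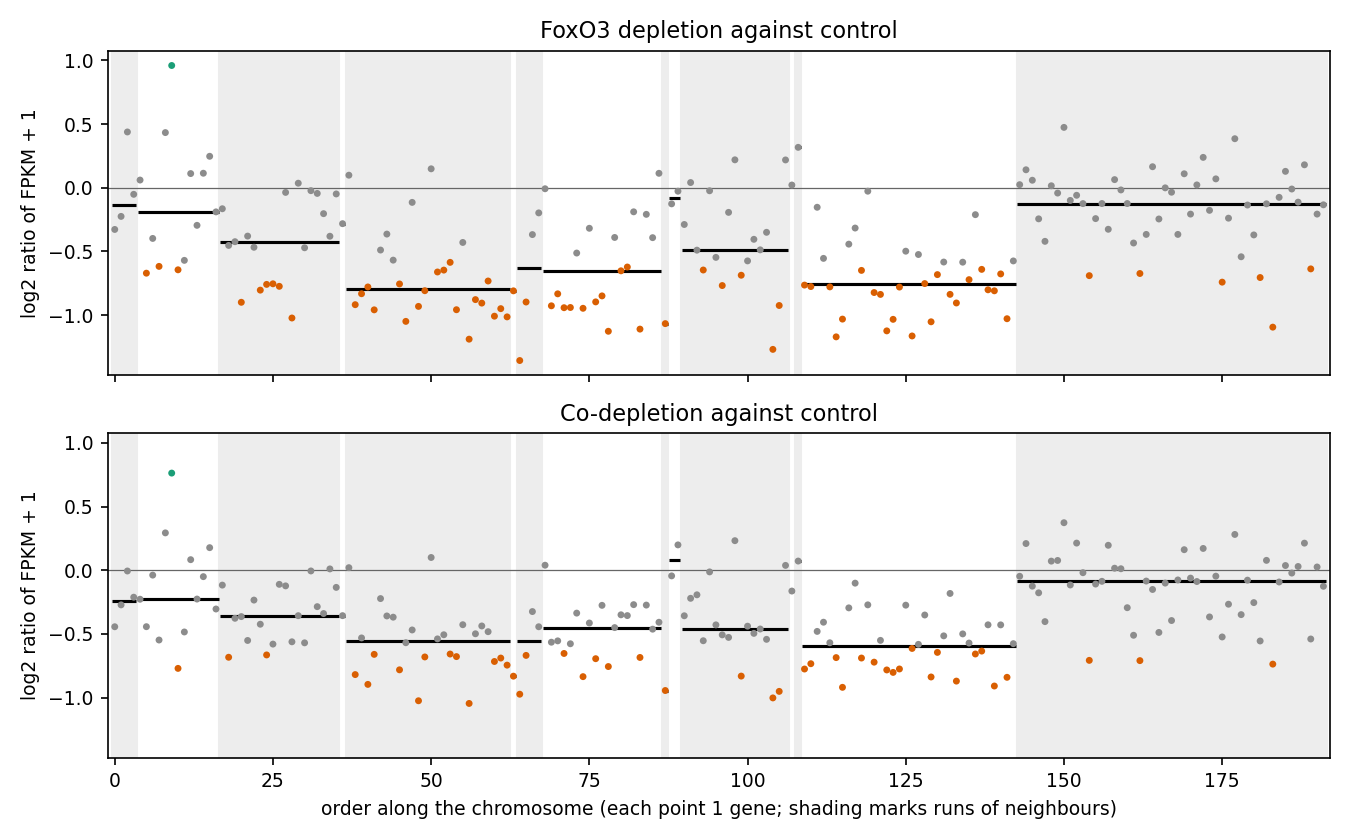
Log2 ratio of FPKM + 1 for the 192 genes in their order along the chromosome, in the FoxO3 depletion (top) and the co-depletion (bottom) against the control; shading alternates between runs, black lines are run medians, orange marks genes at least 1.5-fold lower and green those at least 1.5-fold higher. The long unshaded run before the last shaded one is that from ZNF175 to ZNF331, at medians of -0.76 and -0.60, and the last shaded run is that from ZNF628 to ZNF446, at -0.12 and -0.09.

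The co-depletion of Geminin and FoxO3 was compared with the same control library, so the 2 comparisons with the control are not independent of each other. In the co-depletion 47 of the 192 genes were at least 1.5-fold lower than in the control (24.5%), against 12% of all protein-coding genes. ZNF699 was again the gene at least 1.5-fold higher, against 3.87% of all, with an FPKM ratio of 1.84 (1.51 to 2.26). The median log2 ratio of the family was -0.41, with quartiles of -0.58 and -0.11, and that of all protein-coding genes was -0.05. A ratio below 0 was found in 164 genes (85.4%), against 55.3% of all. At 2-fold, 3 genes were lower, against 2.12% of all, and none was higher, against 0.568%. The counting interval lay under 1 for 105 genes, against 34.1% of all, and above 1 for 5, against 26.2%.

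The lowest 5 genes of this comparison were ZNF100, ZNF85, ZNF112, ZNF302 and ZNF180. ZNF85 stood at 9.66 FPKM in the control, 4.59 with FoxO3 depleted and 4.24 in the co-depletion. ZNF180 stood at 11.96, 5.83 and 5.71 FPKM. Both depleted values of these genes were under the control value by a like amount. The FPKM ratio in the co-depletion was 0.439 (0.320 to 0.595) for ZNF85 and 0.477 (0.384 to 0.589) for ZNF180. ZNF180 has 51.0% GC by the mean over its transcripts and 40.6% in its longest transcript, and its log2 ratio of -0.95 became -1.02 and -0.65 after the respective adjustments. The highest 5 were ZNF699, ZNF787, ZNF317, ZNF552 and ZNF222.

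In the co-depletion, too, ratios were ordered by GC content. The 3 groups of 64 genes, from low to high GC, had medians of -0.57, -0.42 and -0.11, with 27, 14 and 6 genes at least 1.5-fold lower. Of all protein-coding genes 12% were lower by that size, and of those outside the family with up to 40.6% GC 40.4% were. The Spearman correlation with GC content was 0.51 over the family and 0.45 over all protein-coding genes. After adjustment for mean GC the family's median was -0.26, and 22 genes were at least 1.5-fold lower (11.5%), against 5.78% of all, while 1 was higher, against 4.23%. With the GC of the longest transcript the median was -0.16, and 8 genes were lower (4.17%), against 5.14% of all, a share near the background. Among ZNF genes on other chromosomes the median was -0.19 as deposited, and 37 of 188 were lower (19.7%). With the GC of the longest transcript 5 of these were lower (2.66%), a share under those of the family and of all genes. The run from ZNF175 to ZNF331 had a median of -0.60 and 17 lower genes of 34, and that from ZNF628 to ZNF446 had -0.09 and 3 of 49.

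The co-depletion was last set against the FoxO3 depletion, which differ by the added depletion of Geminin. The family's median log2 ratio was 0.05, and that of all protein-coding genes was 0.03. No gene of the 192 was at least 1.5-fold lower in the co-depletion, against 0.21% of all protein-coding genes. ZNF433 and ZNF816 were at least 1.5-fold higher (1.04%), against 0.778% of all, a share near the background. At 2-fold no gene was called in either direction, against 0.0175% of all in each. After adjustment for mean GC, 0 genes were lower and 3 higher, against 0.297% and 0.498% of all, and with the GC of the longest transcript 0 were lower, against 0.28%. ZNF433 stood at 4.03 FPKM in the control, 1.94 with FoxO3 depleted and 3.66 in the co-depletion. ZNF816 stood at 3.76, 1.66 and 3.19 FPKM. In both the FoxO3 depletion was the low library and the co-depletion lay near the control, with FPKM ratios between the depletions of 1.89 (1.09 to 3.38) and 1.92 (1.12 to 3.39) on 20 and 21 reads in the FoxO3 depletion. Over 10% of exon bases of ZNF433 overlap other genes, and ZNF816 shares 11.99% of its 50-base words, so both values are uncertain. The lowest were ZNF573, ZNF665, ZNF57 and ZNF44. ZNF44 stood at 7.68, 7.90 and 5.78 FPKM, a ratio between the depletions of 0.732 (0.573 to 0.933). The counting interval was under 1 for 5 genes and above 1 for 17, against 9.68% and 14.6% of all protein-coding genes.

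Genes under a mean of 1 FPKM were followed by their values alone. Just above that mean were ZNF490, ZNF837 and ZNF554, at means of 1.06, 1.10 and 1.12 FPKM, and just below it were ZNF599, ZNF235 and ZNF20, at 0.937, 0.913 and 0.894. ZNF490 shares 60.4% of its 50-base words with other genes. Of the 29 genes above 0 with a mean under 1 FPKM, 21 had a lower FPKM in the FoxO3 depletion than in the control and 5 a higher one. In the co-depletion 20 were lower and 8 higher. The like share of all protein-coding genes under 1 FPKM was not computed, so these counts are not read as a result. Several rested on very few reads, such as ZNF534 with 2, 1 and 0 and ZNF723 with 1, 0 and 0. ZNF382, a KRAB repressor known as a tumour suppressor silenced by promoter methylation, was among the 29 genes. It stood at 0.378, 0.306 and 0.313 FPKM on 10, 6 and 7 reads. The 17 genes listed at 0 in all libraries include ZNF676, ZNF98, ZNF99, ZNF728, ZNF729, ZNF471, ZNF536, ZNF667 and ZNF677. For these genes 3 reads, the limit that a count of 0 allows, would be 0.0378 to 0.311 FPKM.

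Promoters were examined because the lowest and the highest gene of the family lay on opposite sides of the control when a forkhead factor was depleted. RefSeq (build GRCh38.p14) gave windows of 300 bases around the gene start, most of them upstream, for 174 of the 192 genes. The window of ZNF302, on the plus strand at chr19:34677428-34677727, and that of ZNF699, on the minus strand at chr19:9309789-9310088, are printed 5′ to 3′ on the gene's strand. Capitals mark matches to the forkhead core GTAAACA on either strand.
ZNF302: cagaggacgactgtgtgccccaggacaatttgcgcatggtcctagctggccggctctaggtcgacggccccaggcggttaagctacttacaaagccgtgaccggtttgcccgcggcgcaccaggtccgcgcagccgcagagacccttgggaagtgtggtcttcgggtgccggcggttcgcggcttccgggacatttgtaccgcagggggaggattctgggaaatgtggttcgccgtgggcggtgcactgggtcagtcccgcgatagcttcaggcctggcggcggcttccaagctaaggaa
ZNF699: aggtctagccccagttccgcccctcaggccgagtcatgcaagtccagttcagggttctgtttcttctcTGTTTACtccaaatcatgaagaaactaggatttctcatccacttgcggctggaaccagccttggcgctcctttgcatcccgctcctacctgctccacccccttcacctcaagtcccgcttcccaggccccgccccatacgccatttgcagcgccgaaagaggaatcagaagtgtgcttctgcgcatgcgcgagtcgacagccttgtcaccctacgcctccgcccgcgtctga
The window of ZNF699 holds 1 match, read on the opposite strand, and that of ZNF302 holds none. ZNF699 was the sole member with a match among the 174 (0.575%), and 2.18% of 9181 promoters of protein-coding genes had one. A match is a string of letters and not a shown binding site, and this pair was chosen after the values were seen. The other strings searched on both strands, which may overlap each other, were TTTGGCGC for E2F (4.02% of the family's windows, 1.14% of all), the NRF1 (12.1% and 12.3%) and YY1 (1.72% and 3.51%) consensus, TGACGTCA for the cyclic AMP element (4.02% and 3.46%) and ACCGGAAGT for ETS factors (4.60% and 2.30%). In the FoxO3 depletion the 7 genes with the E2F string had a median log2 ratio of -0.43, and genes without it had -0.44. The 3 genes with the YY1 string had -1.03 against -0.43 without it, and all 3 were at least 1.5-fold lower. The 7 with the cyclic AMP string had -0.02 against -0.47, and none of them was lower by that size. For the ETS string (8 genes) the medians were -0.22 and -0.45, and for the NRF1 string (21 genes) -0.24 and -0.47. These are descriptions of a few genes each, and no difference between them was tested. The median window of the family had 60.7% GC, against 65.7% over all windows.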

How the data were processed

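Per the labels' protocols, lentivirus was applied for 24 h and cells were harvested 72 h after the medium change, and an Illumina TruSeq kit turned total RNA into libraries. The authors deposited 1 file of FPKM values per library. TopHat2 2.0.9 is named in the submitters' processing notes, while for the counter, genome build, annotation and strand setting the sources used here give nothing. GENCODE 29 supplied names, gene class, order, transcript length and GC content, matching 45341 of 48162 gene IDs. Groups were read from titles.

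A pseudocount of 1 FPKM and a minimum mean of 1 FPKM were used. Genes were called at 1.5-fold. Whole reads were recovered as the smallest whole-number transcript length, searched from 30 to 40000 bases, that made reads whole within 0.0001 in all libraries. This was found for 20590 of 20591 genes above 0 in at least 2 libraries and for all 192 members. A gene's true reads may be a whole multiple of those recovered, which would make its interval too wide. With no replicates, no count test was run. GC adjustment subtracted the bin median over 50 bins. Recovery, adjustment and intervals were tested on simulated data. Python 3.11.15, NumPy 2.4.6, SciPy 1.17.1, pandas 2.3.3 and Matplotlib 3.10.9 were used.

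The members and lists were chosen with earlier results of these data known. Named genes are the extremes of each ratio (10, 5 or 4 at each end), the 8 highest means, the 4 lowest and 4 highest GC contents, the 3 on each side of 1 FPKM, and genes with textbook roles. ZNF350, ZNF675, ZNF420 and ZNF45, the promoter strings and the linker pattern were chosen after values were seen. Alternatives were other pseudocounts, minimum means, size rules, rescalings and adjustments. Protein domains were not analysed here.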

Additional observations from a re-analysis of the deposited data

How the results depend on the processing

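No paired analysis was possible because each group holds 1 library, and no replicate could be left out. The family's median log2 ratio stayed below 0 in both comparisons with the control under all 12 alternatives, from -0.52 to -0.16 in the FoxO3 depletion and from -0.49 to -0.15 in the co-depletion. The adjustments were for GC, for GC and length, for the GC of the longest transcript, and for GC and level. In the FoxO3 depletion they gave medians of -0.31, -0.29, -0.22 and -0.16, with 49, 49, 27 and 29 genes at least 1.5-fold lower. Of all protein-coding genes 9.01%, 8.72%, 8.24% and 7.40% were lower by that size. In the co-depletion they gave -0.26, -0.24, -0.16 and -0.15, with 22, 22, 8 and 13 lower genes. There the shares of all genes were 5.78%, 5.65%, 5.14% and 5.05%. For the longest transcript the family's share, 4.17%, was below the 5.14% of all. The GC and level adjustment, and leaving out members that share sequence or exon bases, were chosen after seeing the data. The former brought the median of the co-depletion against the FoxO3 depletion to 0.0041.

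A minimum mean of 5 FPKM kept 91 genes. In the comparisons with the control 34 and 20 were lower, against 14.9% and 11.2% of all protein-coding genes. Between the depletions 0 were higher, against 0.42% of all. At 2-fold, 18 and 3 genes were lower, against 5.3% and 2.12% of all. In each comparison 0 were higher at 2-fold, against 0.638%, 0.568% and 0.0175% of all. A pseudocount of 0.1 FPKM gave a median of -0.49 and 77 lower genes in the co-depletion, against 14.8% of all. In the FoxO3 depletion it gave 2 higher, against 4.82% of all. Between the depletions it gave 3 lower and 10 higher, against 0.822% and 2.39% of all. A pseudocount of 0.5 FPKM gave 2 lower and 7 higher between the depletions, against 0.446% and 1.58% of all. Rescaling to TPM gave a median of -0.47 in the co-depletion and 4 higher genes between the depletions, against 1.18% of all. Leaving out members that share sequence gave 0 higher between the depletions, against 0.778%. Adjustment for the longest transcript gave 2 higher genes in each comparison with the control, against 5.70% and 4.56% of all. That for GC and level gave 3 in the FoxO3 depletion, against 5.88% of all. The cause was not tested where an alternative moved a value other than by keeping fewer genes or a larger fold. No median turned direction, while single calls were compared by their number and not followed gene by gene. ZNF738, called lower in the FoxO3 depletion at a log2 ratio of -0.59, stood at 0.11 after adjustment for the longest transcript. Depth limits the family: a median of 68.5 reads per gene in the FoxO3 depletion leaves wide intervals.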
